A study of Mus musculus with 8 samples.

Results

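The integrin and laminin genes were examined in breast tumors profiled for acetylation of histone H3 at lysine 27 (H3K27ac) by chromatin immunoprecipitation sequencing (ChIP-seq). They were taken by symbol from the GENCODE M21 annotation, as all autosomal protein-coding genes named as an integrin alpha or beta subunit or as a laminin alpha, beta or gamma chain. The integrin-binding and integrin-like genes Itgb1bp1, Itgb1bp2, Itgb3bp and Itgbl1 were left out. This gave 38 genes of 20807, with 27 integrin subunits and 11 laminin chains. All mice were Balb/c, carried the polyoma middle T oncogene (PyMT), which the study drove from the mammary tumor virus promoter, and lacked Rag1 and so had no T or B cells of their own (PyMT;Rag1KO). All had received wild-type CD4+ T cells when 4 weeks old. The control group was 2 tumors of such mice, and the test group was 2 tumors of mice that also carried thymic stromal lymphopoietin under the keratin 14 promoter (K14-TSLPtg;PyMT;Rag1KO), which is active in skin and other basal epithelium. The comparison addresses how CD4+ T cells exposed to this cytokine alter the chromatin of the tumors, which were taken at terminal size. The word tumor stands in the titles of the control samples and the word cyst in those of the test samples. Keratin 14 can itself be active in mammary basal cells, and there was no group without transferred T cells or without PyMT.

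Integrins are cell surface receptors made of an alpha and a beta subunit, and they tie the cytoskeleton to the extracellular matrix or to other cells. Laminins are trimers of an alpha, a beta and a gamma chain and form the sheet-like core of the basement membrane under the mammary epithelium. The integrins alpha6beta4, alpha6beta1 and alpha3beta1 bind laminin in epithelial cells, the alpha1 and alpha2 subunits bind collagen with beta1, and the alphav family and alpha5beta1 bind matrix proteins through an RGD motif. The beta2 integrins are made by leukocytes. H3K27ac marks active promoters and enhancers, so the peaks report on the chromatin of these genes and not on their RNA or protein.

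The deposited lists hold the position and width of each peak and no height, so a gene was described by the percent of bases within 10 kb of its transcription start site (TSS) that lay in peaks, here called window coverage, and by the same percent over the window joined with the gene body, here called locus coverage. The 4 lists held 58328 to 68404 autosomal intervals that covered 63.2 to 72.0 Mb, lowest in test 2 and highest in control 1 on both counts. Read depth is unknown from these lists, and a deeper library can yield more and wider peaks. With 2 tumors against 2, an exact permutation test cannot give a two-sided p below 0.333, so no single difference can pass that test and groups are described by whether their tumors overlap. Per the study, each tumor came from its own mouse. Most luminal epithelial markers had peaks in every tumor, with Epcam at 34.4% and 34.0% window coverage in control 1 and 2 and 34.7% and 34.9% in test 1 and 2. Of the 17 luminal markers, Foxa1 and Pgr had no peak in their windows in any tumor and Elf5 had none in control 2 and test 2. In bulk tumor tissue, fewer cells of one type and less acetylation per cell cannot be told apart.

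Window coverage of the integrin and laminin genes had a lower median in test tumors, a direction that turned when only peaks of at least 1 kb were used (median difference 0.43 percentage points). Of the 38 genes, 31 had window coverage in at least 1 tumor. The 7 without any were Lama2, Lama3, Lamc3, Itga11, Itgad, Itgb7 and Itgb2l. The median difference, test minus control, was -1.06 percentage points (SD over the 4 test-control pairings 1.33, range -2.70 to 0.07), against 0.27 over all 14382 genes with coverage (range of pairings -0.325 to 0.830). The mean of test tumors was lower in 21 of the 31 genes and higher in 10. Both control tumors lay above both test tumors in 11 genes, which is 35.5% of the 31, where 11.7% of all genes with coverage had that order. The opposite order was seen in 3 genes, 9.68% of the 31, against 20.9% of all genes. Test 2 was the lowest of the 4 tumors in 17 of the 31 genes (54.8%), whereas it was lowest in 35.6% of all genes. With other protein-coding genes and the bases within 1 kb of their TSS left out of each window, the first count was 7 and the second stayed at 3. That step was applied to the integrin and laminin genes alone, so the shares of all genes given above do not apply to it.

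**Figure D1:**
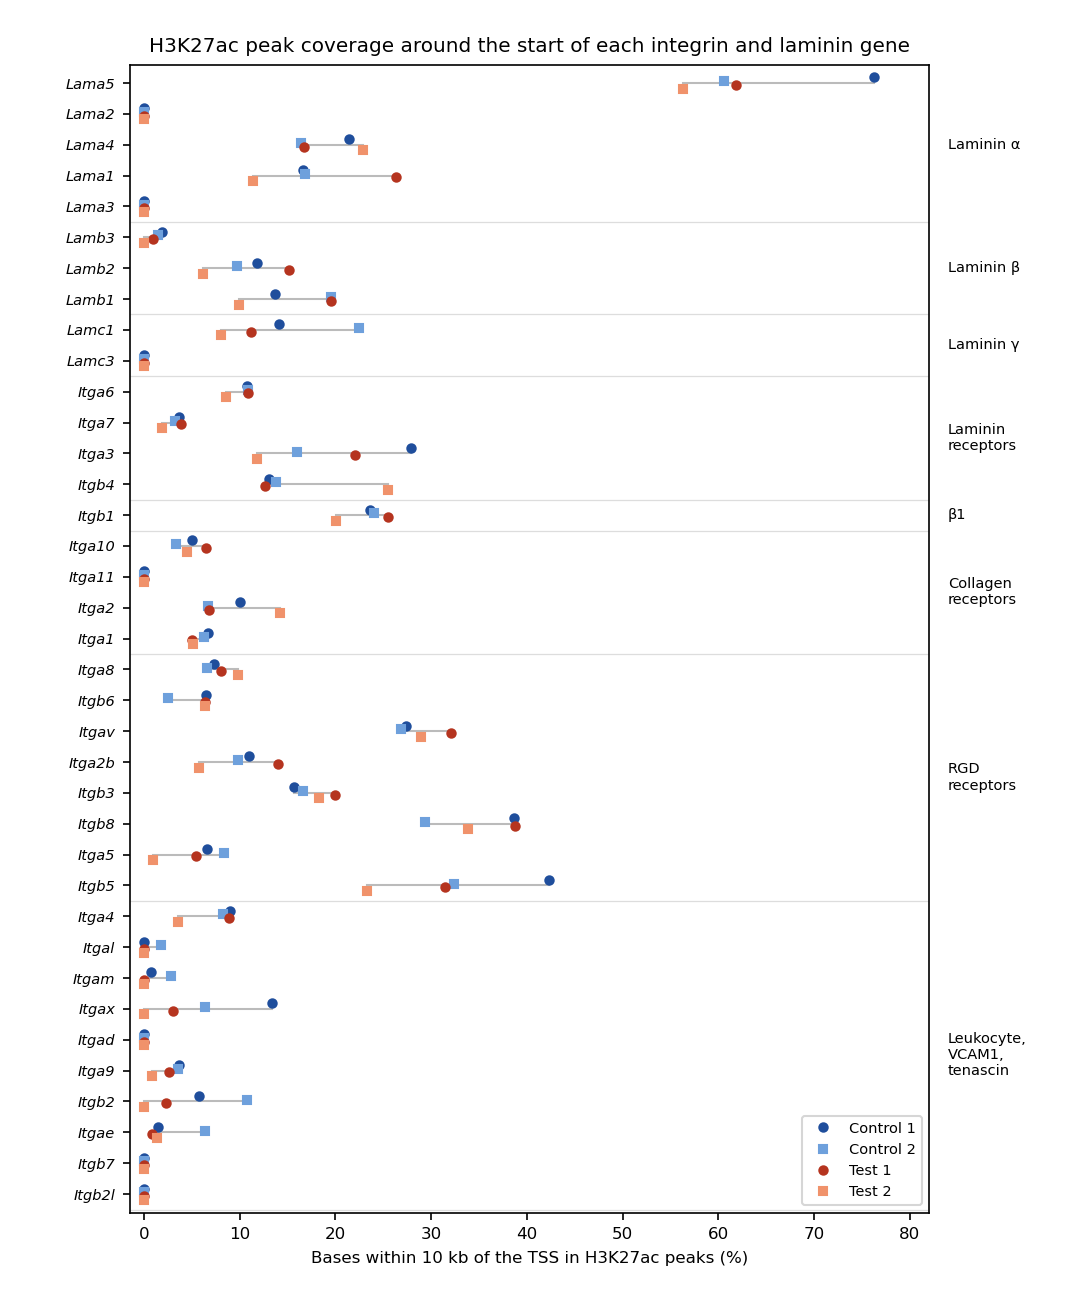
Window coverage (percent of bases within 10 kb of the TSS in H3K27ac peaks) of 37 of the genes, grouped by role, with 1 point per tumor and a grey line over their range. The 10 genes of the lowest group lie at the left with the test tumors mostly below the controls, and Lama5 lies furthest right at 56.3% to 76.3%.

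Locus coverage gave the same order for fewer genes. At least 1 tumor had a peak in the locus of 35 genes, and Lamc3, Itgb7 and Itgb2l had none. The median difference was -0.32 percentage points (SD over pairings 0.95, range -1.76 to 0.33), with 0.0816 over all genes. Over the integrin and laminin genes it was -0.03 without test 2 and -1.03 without test 1. Both control tumors lay above both test tumors in 7 genes (13.0% of all genes had this order), among them Lamc1, Itga5, Itgam, Itgax, Itgb2 and Itgb5, and all 7 had the same order in window coverage. Itgav alone had both test tumors above both controls, an order found in 19.0% of all genes.

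**Figure D2:**
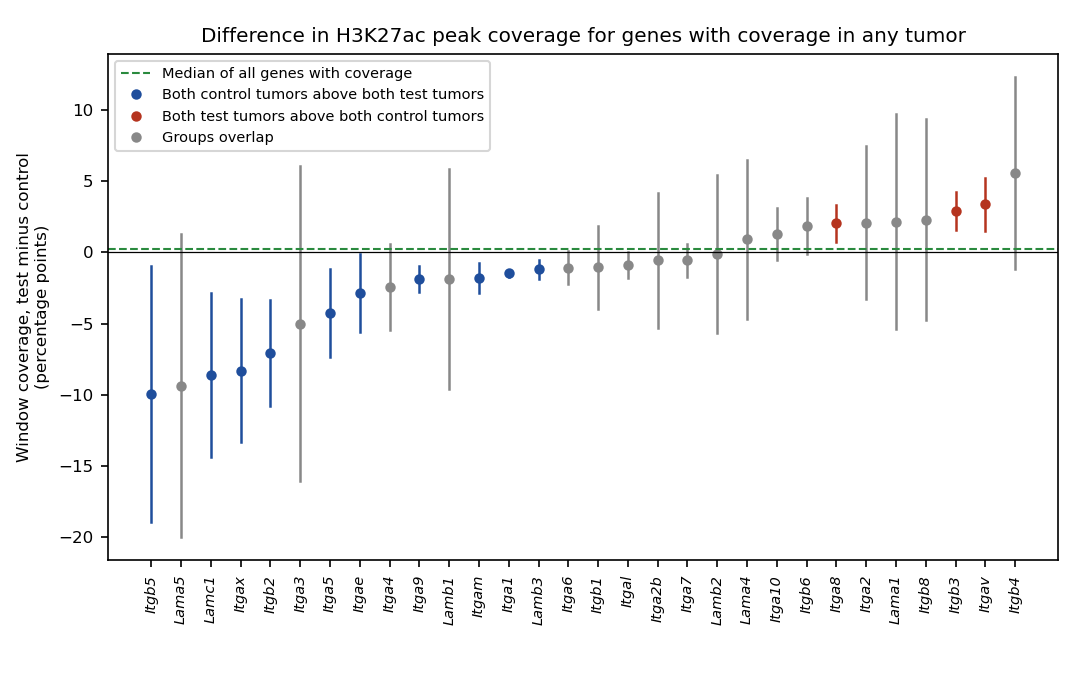
Difference in window coverage, test mean minus control mean in percentage points, for 30 of the genes with coverage, with lines over the 4 differences between a test and a control tumor. Blue marks the 10 genes drawn with both control tumors above both test tumors and red the 3 with the opposite order, and the dashed line is the median of all genes at 0.27.

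Among the laminins, Lamc1 had both control tumors above both test tumors. The gene (chr1:153218922-153332786, minus strand, mm10) encodes the gamma1 chain shared by most laminins of the basement membrane. Its window coverage was 14.1% and 22.4% in control 1 and 2 and 11.2% and 8.02% in test 1 and 2, a difference of -8.64 percentage points (SD over pairings 5.15). Without control 1 it was -12.8 and without control 2 -4.48. Over the whole locus the values were 10.5%, 15.5%, 6.36% and 1.92% in the same order. Both test tumors thus lay below both controls on either measure, with test 2 lowest. The promoter itself did not separate the groups, since 1604 to 1761 of its 2001 bases, within 1 kb either side of the TSS, lay in peaks in every tumor. Regions inside the gene carried the lower values. The peak lists held 16 and 20 intervals in the Lamc1 locus in control 1 and 2, 13 in test 1 and 4 in test 2. At 107.5 kb from the TSS, an exonic region of 4523 bp held 3309 and 4523 peak bases in the controls, 2400 in test 1 and 774 in test 2. A second region at 97.76 kb held 2296, 3263 and 1471 bases in control 1, control 2 and test 1 and none in test 2.

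Lamc1 also held 4 of the 17 regions seen in both control tumors and neither test tumor, the most with Itgb2 (3) next. All 4 were intronic, centred 2.676, 15.09, 27.45 and 32.68 kb from the TSS and 1769, 866, 540 and 802 bp wide. The part of each region that lay in the peaks of both tumors was narrower, since control 1 held 402, 313, 186 and 722 bp of them and control 2 held 1730, 866, 530 and 714 bp. The widest is shown as an example of a control-only sequence in a laminin gene, as the 200 bases at the centre of its longest stretch in peaks of both controls (chr1:153330753-153330952, mm10, given on the strand of the gene). That stretch holds none of the motifs searched, which are spelled out with the motif counts. The reference sequence is not that of the Balb/c mice themselves.
Lamc1 intron: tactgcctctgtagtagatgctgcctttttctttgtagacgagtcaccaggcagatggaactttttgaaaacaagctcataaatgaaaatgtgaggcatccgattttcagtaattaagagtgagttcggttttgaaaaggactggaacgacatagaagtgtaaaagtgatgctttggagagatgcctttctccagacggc

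The other laminin chains described here showed smaller or overlapping values. Lamb3 (chr1:193207699-193343878), a beta chain of the epithelial laminin that anchors basal keratinocytes, had window coverage of 1.84%, 1.42%, 0.910% and 0%, a difference of -1.18 percentage points that was -0.722 without test 2. The 5′ end of its annotation lies 94.29 kb upstream of the transcript start with the most peak, and all of the covered bases in the window lay in other genes or near their TSS. Around that other start the 4 tumors had 8.62%, 9.36%, 9.45% and 3.37%, and the groups overlapped. A control-only region of 1227 bp in a Lamb3 intron also overlaps Hsd11b1, a steroid dehydrogenase gene, and 262 bp of it lay in peaks in control 1.

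Lamb1 and Lamb2, the beta chains of most other laminins, overlapped between groups. Lamb1 (chr12:31265234-31329644) had 13.7% and 19.5% in the controls, 19.6% in test 1 and 9.88% in test 2, so that the test tumors were the highest and the lowest of the 4. It nevertheless held 2 of the 3 regions present in both test tumors and neither control. These were intronic, 8.187 and 46.14 kb from the TSS and 359 and 187 bp wide, and 267 bp of the first lay in peaks in each test tumor. The first is shown as a test-only sequence, as the 175 bases within the peaks of both test tumors (chr12:31273334-31273508, plus strand), and its capitals mark a RUNX motif match (TGTGGTT, the binding motif of the Runx transcription factors), which 6.86% of all regions hold.
Lamb1 intron: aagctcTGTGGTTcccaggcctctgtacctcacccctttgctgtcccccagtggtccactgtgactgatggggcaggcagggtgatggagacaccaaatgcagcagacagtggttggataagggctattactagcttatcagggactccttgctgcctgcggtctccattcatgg

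The alpha chains ranged widely in coverage. Lama5, the main alpha chain of mature epithelial and vascular basement membrane, had the highest window coverage of the 38 genes at 76.3% and 60.6% in the controls and 61.9% and 56.3% in the test tumors. A single region of 12965 bp spanned its promoter and held 11807 to 12867 peak bases in each tumor. Control 1 stood apart and the other 3 tumors lay close together, so the groups overlapped. With coverage scaled to the mean of each tumor, or with peaks within 1 kb joined, both controls lay above both test tumors in Lama5. Lama4, the alpha chain of vessels and muscle, had 21.4%, 16.4%, 16.7% and 22.9% and Lama1, an alpha chain of embryonic and some adult basement membranes, had 16.6%, 16.8%, 26.3% and 11.4%. Neither separated the groups, though with only peaks of at least 1 kb Lama4 had both test tumors above both controls. Lama2, the muscle and nerve alpha chain, had no peak in its window, and its locus coverage did not exceed 0.0380% in any tumor. Lama3 had no peak near its annotated 5′ end, but at a transcript start 170.4 kb further in, 155, 389, 1105 and 0 promoter bases lay in peaks in control 1, control 2, test 1 and test 2.

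The laminin receptors did not separate the groups in window or locus coverage as defined here. Itga6 (chr2:71745616-71858416), the alpha subunit of alpha6beta4 and alpha6beta1 and a marker of basal and progenitor cells, had locus coverage of 23.8% and 23.6% in the controls, 24.9% in test 1 and 15.9% in test 2. Only test 2 was low. Its 7668 bp region at 66.34 kb held 7480, 7245, 7402 and 5397 peak bases and was the third widest of all regions in these loci. Around the transcript start with the most peak, 41.36 kb downstream of the annotated 5′ end, window coverage was 36.0% and 37.3% in the controls and 35.7% and 24.2% in the test tumors, which put both controls above both test tumors by less than 1 percentage point for control 1 against test 1. Itga6 had the same order around its annotated 5′ end with the same number of peaks taken per tumor, with coverage scaled to the mean of each tumor and with a window of 5 kb either side. With only peaks of at least 1 kb, Itga6 and Itgb4 had both test tumors above both controls and Itga7 the opposite order. Itgb4, the beta subunit of the hemidesmosome, had 13.1%, 13.8%, 12.6% and 25.5%, with test 2 the highest of the 4. Itga3 had 27.9%, 16.0%, 22.1% and 11.8%, and Itga7, the laminin receptor of muscle, had 3.64%, 3.23%, 3.83% and 1.93%. Itgb1 (chr8:128685654-128733200), the beta subunit shared by many alpha subunits, was covered at 23.6% and 24.0% in the controls and 25.5% and 20.1% in the test tumors, and 1 control-only region of 451 bp lay in its intron.

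**Figure D3:**
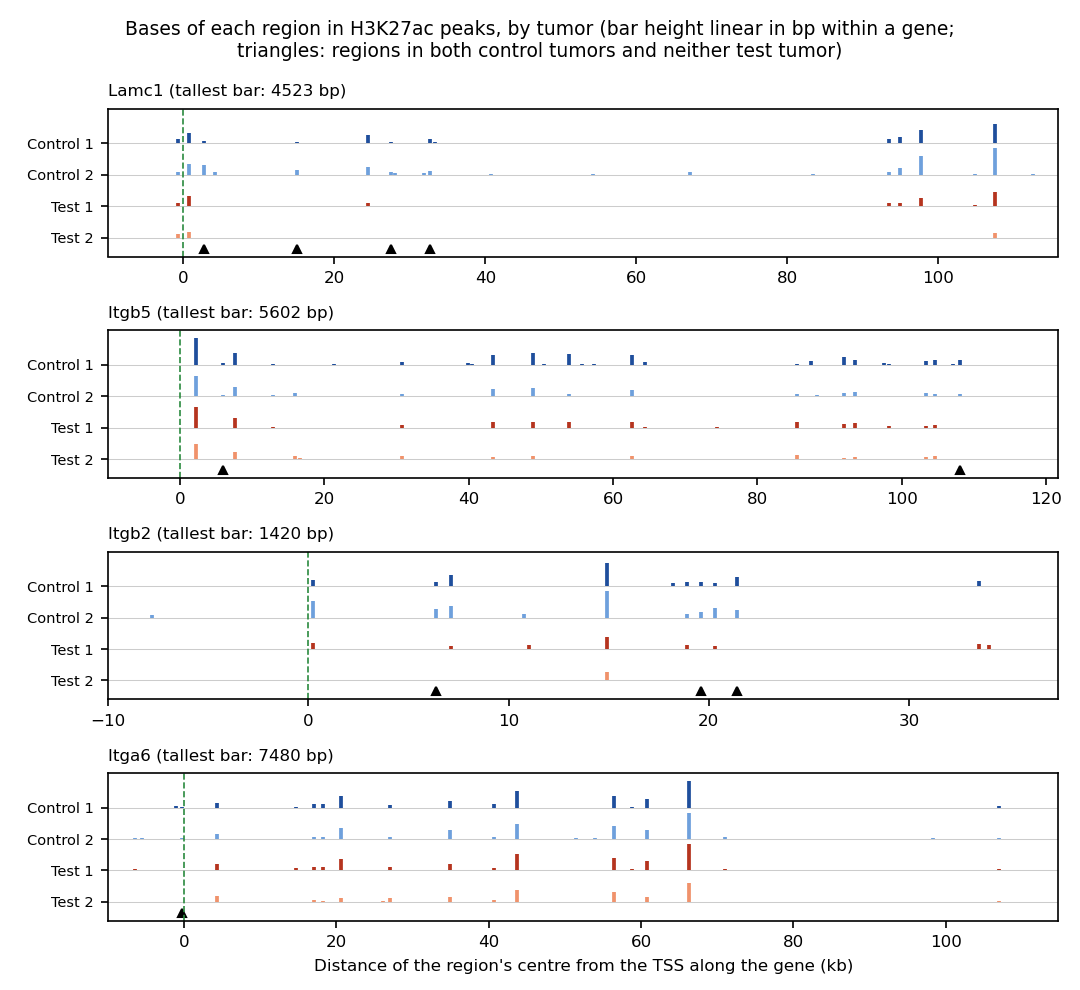
Regions in the loci of Lamc1, Itgb5, Itgb2 and Itga6, placed by the distance of their centre from the annotated TSS (dashed line, kb), with bar heights proportional to the bases of the region in peaks in each tumor and scaled to the tallest bar of the gene (4523, 5602, 1420 and 7480 bp). Triangles mark regions in both control tumors and neither test tumor (4 in Lamc1, 2 in Itgb5, 3 in Itgb2 and 1 in Itga6).

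Of the collagen receptor subunits, Itga1 (chr13:114953096-115101964) had both controls above both test tumors. Its window coverage was 6.66% and 6.32% against 4.97% and 5.09%, a difference of -1.46 percentage points (SD over pairings 0.212), the smallest SD among the 11 genes. Its locus coverage overlapped, at 3.16%, 2.27%, 2.28% and 1.68%. The covered bases of its window all also lie in a predicted gene, Gm49395, or close to its start. Its promoter held 1333 and 1264 peak bases in the controls and 994 and 1019 in the test tumors. Itga2, the collagen receptor of epithelium and platelets, had 10.1%, 6.72%, 6.78% and 14.2% and Itga10, of cartilage, had 5.02%, 3.33%, 6.45% and 4.46%, and both overlapped. Itga11, a fibroblast collagen receptor, had no peak in its window in any tumor. An Itga2 intron (chr13:114852269-114853403) held the widest test-only region, 1135 bp of peak in test 2 and 166 bp in test 1. Those 166 shared bases (chr13:114852743-114852908) are shown on the strand of the gene, the minus strand, and hold no match to a searched motif.
Itga2 intron: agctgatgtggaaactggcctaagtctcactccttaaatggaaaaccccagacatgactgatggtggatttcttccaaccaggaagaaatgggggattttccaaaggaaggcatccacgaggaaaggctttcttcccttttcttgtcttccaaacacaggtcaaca

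The RGD receptors held genes of both orders, and all 3 genes with both test tumors above both controls were among these 8. Itgav (chr2:83724397-83806916), the alpha subunit shared by the receptors that activate latent TGF-beta, had window coverage of 27.4% and 26.8% in the controls and 32.1% and 28.9% in the test group, higher by 3.38 percentage points (SD over pairings 1.85). Its locus coverage was 6.75%, 7.52%, 9.35% and 8.32%. The groups did not overlap on either measure, and its promoter was fully covered in every tumor. In a window of 5 kb either side the groups overlapped, and without test 1 the difference was 1.81 percentage points. Itgb3 (chr11:104608000-104670476), a partner of alphav and of the platelet alphaIIb subunit, had 15.7% and 16.7% against 19.97% and 18.3%. Itga8 (chr2:12106632-12301922), a subunit of mesenchymal and smooth muscle cells, had 7.32% and 6.54% against 8.09% and 9.87%. The differences were 2.95 and 2.05 percentage points (SD over pairings 1.13 in both). For both genes the window values overlapped with peaks within 1 kb joined and with only peaks of at least 1 kb, where the difference in Itgb3 was 0.43, and without test 2 that in Itga8 was 1.16. In either gene the locus coverage overlapped between groups. The epithelial partners Itgb6 and Itgb8 also overlapped, at 6.45%, 2.47%, 6.33% and 6.34% for Itgb6 and at 38.6%, 29.4%, 38.8% and 33.9% for Itgb8, as did Itga2b, the platelet subunit, at 11.02%, 9.83%, 14.03% and 5.70%.

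Itgb5 (chr16:33829665-33949338), another partner of alphav, was also lower in test tumors. Its window coverage was 42.3% and 32.4% in the controls and 31.4% and 23.3% in the test tumors, which is -9.99 percentage points (SD over pairings 7.39), and its locus coverage was 20.97%, 13.0%, 12.4% and 7.88%. The groups did not overlap, although control 2 and test 1 were about 1 percentage point apart or less on both measures. The groups overlapped with a window of 5 kb either side and with peaks within 1 kb joined, and without control 1 and without test 2 the window difference was -5.03 and -5.94 percentage points. The region over the Itgb5 promoter, 5602 bp wide, held 5602, 4228, 4253 and 3186 peak bases. Itgb5 had 2 control-only intronic regions, of 509 bp at 6.001 kb and of 1331 bp at 108.1 kb. The second was the next widest control-only region after that of Lamc1, and the 158 bases that form its longest stretch in peaks of both controls (chr16:33937414-33937571, plus strand) hold no searched motif. Itga5 (chr15:103344286-103366763), which with beta1 forms the main fibronectin receptor, had 6.63% and 8.34% in the controls, 5.47% in test 1 and 0.985% in test 2. Its promoter held 991, 1255 and 1095 peak bases in control 1, control 2 and test 1 but 197 in test 2, and its difference was -4.25 percentage points (SD over pairings 2.77), -2.01 without test 2 and -6.50 without test 1. With only peaks of at least 1 kb the Itga5 difference was -0.87, and the controls no longer both lay above both test tumors.
Itgb5 intron: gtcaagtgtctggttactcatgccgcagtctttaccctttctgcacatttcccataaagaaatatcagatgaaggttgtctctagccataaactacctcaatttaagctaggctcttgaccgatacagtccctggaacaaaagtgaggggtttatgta

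The leukocyte integrins and the VCAM1 and tenascin receptors had lower test means throughout. This held for all 7 of the 10 genes with window coverage, with a median difference of -2.43 percentage points, and 5 of the 7 had both controls above both test tumors (11.7% of all genes). Of these 5, Itgae and Itgam lost that order when the bases of other genes were left out. Their window percentages summed to 33.9 and 40.1 in control 1 and 2, 17.7 in test 1 and 5.72 in test 2. Itgb2 (chr10:77530252-77565708), the common beta2 subunit of leukocytes, had window coverage of 5.73% and 10.8% in the controls, 2.35% in test 1 and 0% in test 2, and locus coverage of 8.70%, 11.3%, 4.80% and 0.961%. The difference in window coverage was -7.09 percentage points (SD over pairings 3.23), and was -4.55 without control 2. It was 0 with only peaks of at least 1 kb, as it was for Itgam, Itga9 and Lamb3. Its promoter held 331, 901 and 304 peak bases in control 1, control 2 and test 1 and none in test 2. Of 14 regions in the Itgb2 locus, 1 was in all 4 tumors, 14.91 kb from the TSS, with 1244, 1420, 652 and 437 peak bases. A further 3 regions of 275 to 515 bp, one of them exonic, were control-only.

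Itgax (chr7:128129547-128150657), which encodes CD11c of dendritic cells and macrophages, had 13.4% and 6.37% in the controls, 3.07% in test 1 and 0% in test 2, a difference of -8.33 percentage points (SD over pairings 4.40) that was -4.84 without control 1, and no peak anywhere in its locus in test 2. With only peaks of at least 1 kb the difference was -2.88, and the controls no longer both lay above both test tumors. Itgam (chr7:128062640-128118491), which encodes CD11b of myeloid cells, had 0.775% and 2.87% in the controls and no peak in either test tumor, in the window or in the gene body. Its window difference was -0.775 percentage points without control 2 and -2.87 without control 1, and with the same number of peaks per tumor its groups overlapped. Its promoter region of 397 bp, 0.35 kb downstream of the TSS, held 155 and 365 peak bases in control 1 and 2. All peaks of Itgam also lie within Gm49368, a predicted gene over the same bases. The Itgax promoter held 1002, 234 and 289 peak bases in control 1, control 2 and test 1 and none in test 2, so the groups overlapped there. The 250 bases before the RefSeq start of each gene (GRCm38.p6, the assembly of mm10) are shown, since peaks lie in them or just downstream. In Itgax these include a peak of test 1 just downstream. In Itgam (chr7:128062390-128062639) none of these bases lay in a peak and in Itgax (chr7:128129300-128129549) 53 did in control 1. Capitals mark a PU.1 motif match (GAGGAAG) in Itgam and an AP-1 match (TGANTCA) in Itgax, which 10.7% and 6.77% of the 31396 promoter sequences of that length hold.
Itgam promoter: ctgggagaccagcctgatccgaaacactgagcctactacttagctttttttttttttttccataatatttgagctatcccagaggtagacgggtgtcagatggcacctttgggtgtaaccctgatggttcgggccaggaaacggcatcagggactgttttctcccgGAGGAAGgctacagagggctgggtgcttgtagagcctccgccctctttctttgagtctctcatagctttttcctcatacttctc
Itgax promoter: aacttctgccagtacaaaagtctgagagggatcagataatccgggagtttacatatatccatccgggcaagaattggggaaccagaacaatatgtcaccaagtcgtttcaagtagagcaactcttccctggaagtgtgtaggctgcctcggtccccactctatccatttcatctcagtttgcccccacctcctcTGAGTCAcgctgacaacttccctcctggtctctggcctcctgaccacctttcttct

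Itgal, the T cell and leukocyte partner of beta2, had a peak in control 2 only (1.79% window coverage). Itgae (chr11:73090583-73147446), the subunit that retains T cells in epithelium, had 1.43%, 6.41%, 0.830% and 1.34%, in the order control 1, control 2, test 1 and test 2. All of this came from a region over Ncbp3, a neighbouring gene, and the difference of -2.84 percentage points was smaller than its SD over pairings of 2.89, and was -0.35 without control 2 and -5.32 without control 1. Itga9 (chr9:118606690-118901003), a tenascin and VCAM1 receptor, had 3.64% and 3.56% in the controls and 2.57% and 0.855% in the test tumors, with 2 control-only intronic regions of 410 and 421 bp, while its locus coverage overlapped. With the same number of peaks taken per tumor its groups overlapped in the window too, at a difference of -0.17 percentage points instead of -1.89, and without test 2 the difference was -1.03. Itga4, the VCAM1 receptor of lymphocytes, was at 8.98%, 8.31% and 8.89% in control 1, control 2 and test 1 and at 3.52% in test 2. Itgad had a peak in its gene body in control 1 only, and Itgb7 and Itgb2l had none.

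The myeloid, T cell, endothelial and fibroblast marker lists had lower summed window coverage in both test tumors than in both controls. The sums of the luminal, myoepithelial, platelet and skeletal muscle lists overlapped between groups. Of 15 autosomal myeloid markers, 13 had window coverage and 7 of the 13 had both controls above both test tumors, with the opposite order in 1, beside 11.7% and 20.9% of all genes, which are also the shares for the lists that follow. Their window percentages summed to 270.4 and 227.4 in control 1 and 2 and to 214.2 and 145.1 in test 1 and 2. C1qa, a complement gene of macrophages, had 34.8%, 22.9%, 17.4% and 4.59%, and Spi1, the gene of the myeloid factor PU.1, had 32.8%, 27.6%, 23.8% and 6.45%. Fcgr3, an Fc receptor gene, had 9.64% and 9.91% in the controls against 11.6% and 13.2%, and Cd14, a receptor for bacterial lipopolysaccharide, overlapped at 48.9%, 32.6%, 54.8% and 41.7%. Adgre1 and Cx3cr1 had no peak in their windows in any tumor. T cell markers had sums of 33.4, 33.2, 18.7 and 4.45 over 11 covered genes, with Zap70, Icos and Ctla4 at 0. Both controls were higher in 4 of the 11 and both test tumors in 1, Cd3e, while Bcl11b, a T cell transcription factor, made up much of the sums at 22.1%, 13.5%, 8.20% and 0%. Endothelial markers had both controls higher in 5 of 10 covered genes and sums of 47.4, 43.9, 19.8 and 14.8, with Tie1, Vwf, Erg and Cldn5 at 0. Fibroblast markers had both controls higher in 3 of 10 (Dcn, Col6a3 and Col1a2, all at 0 in both test tumors) and sums of 53.8, 38.6, 32.5 and 9.09, with Lum, Fap, Dpt and Twist2 at 0 in every tumor. No fibroblast or endothelial marker had both test tumors higher. The luminal list differed by a median of 0.02 percentage points, with 1 gene in the first order and 2 in the second, over sums of 634.3, 577.2, 613.7 and 598.4. The myoepithelial markers had 1 and 2 of 11 and sums of 59.5, 29.0, 67.9 and 34.2, with Trp63 at 0. Platelet markers had 2 and 1 of 6, and skeletal muscle markers 0 and 1 of 3, with Myod1, Myog, Acta1 and Tnnt3 at 0. The part of cell composition in the integrin and laminin differences was not tested.

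**Figure D4:**
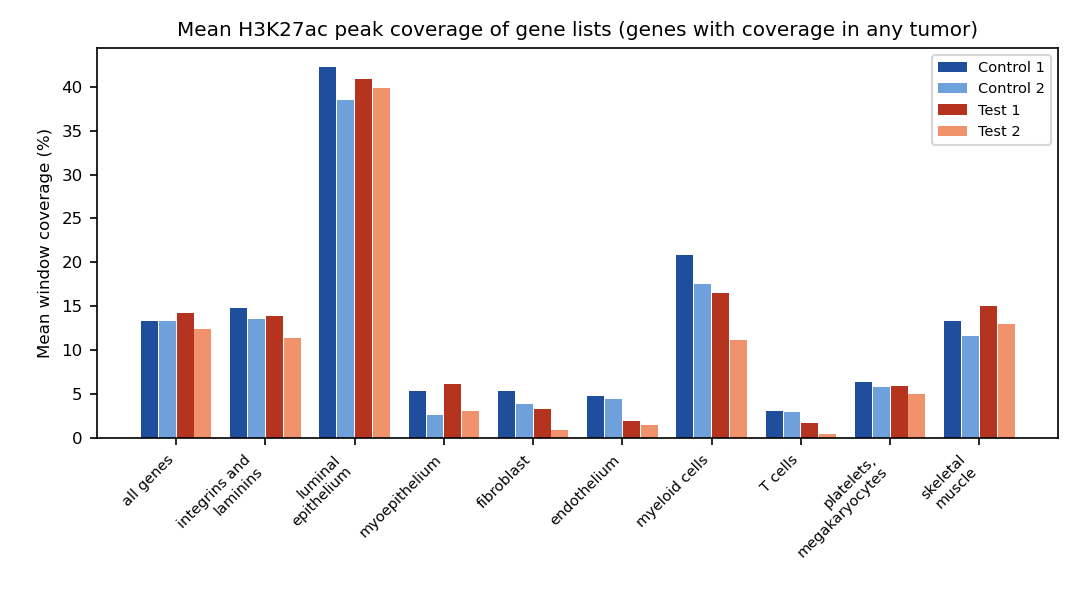
Mean window coverage (percent of bases within 10 kb of the TSS in peaks) per tumor for all genes, for the integrins and laminins and for the marker lists, over the genes of each list with coverage in at least 1 tumor. The fibroblast, endothelial, myeloid and T cell bars are lower in both test tumors than in both controls, and the luminal bars lie between 38.5% and 42.3%.

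Promoters of these genes were mostly shared. A peak lay within 1 kb of the annotated TSS in all 4 tumors in 19 of the 38 genes and in no tumor in 13. Itga6 and Itgam had a control-only promoter, where 0.935% of all genes with a promoter peak in any tumor did. In Itga6 this was a region of 210 bp at the annotated 5′ end, while the start 41.36 kb inside the gene was covered by 1312 to 1677 bases in every tumor. With the transcript start that holds the most peak taken for each gene, only Itgam remained, and with the same number of peaks taken per tumor only Itga6 did. With only peaks of at least 1 kb neither was control-only. No integrin or laminin promoter was test-only, where 0.541% of all genes were.

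Across all loci, 319 regions were found, of which 108 (33.9%) were in all 4 tumors, against 38.2% of all 89238 regions. Control-only regions numbered 17, or 5.33%, in 10 genes, where 3.42% of all regions were control-only. Test-only regions numbered 3, or 0.94%, in Lamb1 and Itga2, where 1.47% of all regions were test-only. Of the 17 control-only regions, 14 lay in introns, 2 at promoters and 1 on an exon, whereas 21 of the 29 promoter regions were in all 4 tumors. Their median width was 509 bp, against 1676.5 bp for the regions in all 4 tumors. Test 2 held peaks in 143 of the 319 regions, against 222, 207 and 191 in control 1, control 2 and test 1. It was also lowest over all 89238 regions, with 50703 against 60141, 57265 and 56774.

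Short motifs were counted on both strands in the central 300 bases of each region. They were TGANTCA (AP-1), GAGGAAG (PU.1), TGTGGTT (RUNX), GGAATG (TEAD), AACCGGTT (GRHL) and TTCNNNGAA (STAT), and none contains another. PU.1 matches were found in 4 of the 17 control-only regions (23.5%) and in 13.1% of all regions. AP-1 matches were in 2 of the 17 and in 14.8% of the 108 regions in all 4 tumors, against 10.2% of all regions. TEAD matches were in 3 of the 17, beside 16.5% of all regions. RUNX and STAT matches were in 1 each, beside 6.86% and 10% of all regions. GRHL matches were in 1 of the 319 regions. These are counts of letters in the reference and were not tested.

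Genes that work beside integrins and laminins were listed too. Of 33 integrin adaptors and effectors, 31 had coverage, and 9 had both controls above both test tumors and 4 the opposite (11.7% and 20.9% of all genes), with a median difference of -1.06 percentage points. Tns3 and Tns4, of the tensin family of focal adhesion proteins, had the largest differences of the first kind, at 52.3%, 43.3%, 43.0% and 22.8% for Tns3 and at 32.4%, 24.4%, 19.7% and 14.7% for Tns4. On the other side, Git1, a scaffold protein of focal adhesions, had 31.4% and 32.7% in the controls against 42.1% and 42.4%. Fermt2, a kindlin that activates integrins, had 20.3% and 21.2% against 27.2% and 33.5%, and Parva, a partner of integrin-linked kinase, had 6.30% and 6.19% against 11.4% and 9.84%. The list therefore held large differences of both signs.

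Of 23 genes for partners of laminins in the basement membrane, 17 had coverage, 5 with both controls higher and 2 with both test tumors higher (again beside 11.7% and 20.9% of all genes), and the median difference was -0.74 percentage points. Sparc, a collagen-binding matrix protein, had 32.8%, 31.6%, 18.1% and 7.04%. Col4a1 and Col4a2, the type IV collagen chains, start from one shared promoter and so gave almost the same values, 23.5% and 28.2% in the controls and 12.3% and 4.44% (Col4a1) in the test tumors. The groups did not overlap in any of these 3 genes, and test 2 was the lowest tumor in each. Agrn, a proteoglycan that binds laminin, had 55.2% and 63.7% in the controls against 67.9% and 65.9%, and Ntn1, a laminin-related netrin, had 20.6% and 19.8% against 22.1% and 28.2%.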

How the data were processed

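H3K27ac ChIP-seq was done on 2 control and 2 test tumors, and the matched inputs were not analysed here. Per the study's methods, the authors aligned reads to mm10 with BWA and called peaks per tumor with MACS2 against input at a q-value of 0.01. The deposited lists give peak positions in base pairs, without score or signal, and neighbouring intervals lie at least 201 bp apart. What the authors' cleaning removed is not given in the sources used here. Groups followed the genotype labels, and replicate numbers only name tumors.

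Coverage within 10 kb of the GENCODE M21 TSS and over each locus was computed with Python 3.11.15 and numpy 2.4.6 and checked on simulated peak lists. Touching peaks of the 4 tumors were joined into regions, and 1 bp of overlap counted as present. Genes with coverage in no tumor were left out of medians and shares. Genes of the rule were described by role, 1 of them only within counts and medians since its values are not reported here, with values per tumor where groups did not overlap or a group-only region or promoter was found. Of the partner lists, the 5 largest differences without overlap were named. Genes, lists and motifs were chosen with earlier results of these data known. Sequences were cut from the part of a region in peaks of both tumors, a choice made after the data were seen. A RefSeq promoter entry was found for 24 of the 38 genes. Alternatives are given in the closing section.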

Additional observations from a re-analysis of the deposited data

How the results depend on the processing

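With peaks of at least 1 kb alone, the median window difference over the integrin and laminin genes turned to 0.43 percentage points (0.45 over all genes). Of the 26 genes with coverage, 4 had both controls higher (Itga1, Itga7, Itgb5 and Lamc1) and 4 both test tumors (Itga6, Itgav, Itgb4 and Lama4). Of all genes with coverage, 9.60% and 20.9% had these orders. There were 4 control-only regions (3.81%, beside 2.50% of all regions), 0 test-only regions (630 of all 30304) and 0 control-only promoters. With peaks within 1 kb joined there were 9 control-only regions (4.21%, beside 2.90% of all regions) and 1 test-only region (820 of all 62269). Both controls were higher in 11 genes and both test tumors in 1, beside 13.0% and 19.6% of all genes with coverage. Control-only promoters numbered 1 with the same number of peaks (58328) taken from each tumor and 1 with the transcript start with the most peak. Leaving out bases of other genes, an alternative added after seeing the data, gave 7 genes with both controls higher, with no share of all genes computed. Lamb3, Itgae, Itgam and Itga1 were the genes lost. The causes of these moves were not tested, but joining and width limits leave fewer regions by construction. The median stayed negative under the other settings tried.

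Leaving out 1 tumor loosens the group rules, so counts rise by construction, and the lone tumor has no spread. The median window difference ranged from -2.22 (without test 1) to -0.72 (without test 2) and the median locus difference from -1.03 to -0.03. Genes with both controls higher numbered 12 to 21 (21 without test 1) and the opposite 3 to 12 (12 without test 2), while 39.5% and 50.1% of all genes had these orders in those settings. Control-only regions numbered 22 to 64, or 7.17% to 22.1% of the regions in these loci, beside 5.53% to 15.5% of all regions. Test-only regions numbered 4 to 29, where 2743 to 9425 of all regions (83201 to 85309 per setting) were test-only. Control-only promoters numbered 2 to 5, where Itga9, Itgax and Itgb2 joined without test 1, and test-only promoters 0 to 0. Lamc1 kept both controls above both test tumors under every setting tried, and Itga1 under all but the one that leaves out other genes. Of 150 single-gene values, 23 moved by more than the SD over pairings and none changed sign, though with peaks of at least 1 kb the differences of Itgb2, Itgam, Itga9 and Lamb3 were 0, as was that of Lamb3 with a 5 kb window. No paired analysis was possible because replicate numbers only name tumors and no test was run. Read depth and peak height are unknown, so a peak missing from a list may lie just under the caller's threshold.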
